A study of Mus musculus with 4 samples.

Results

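The genes *Ccne2*, *Ccnf*, *Chek1*, *Fen1*, *Mybl2*, *Neil3*, *Trip13* and *Ezh2*, of S phase, the cell cycle checkpoints, DNA repair and chromatin, were compared between CD4+ T cells from the spleens of 1 MRL/lpr mouse and 1 B6 mouse. The 8 genes are part of a deposited table of 440 mRNAs that were higher in MRL/lpr and paired by target prediction with a lower miRNA, and of 652 mRNAs in that table and the matching table of lower mRNAs. They were chosen by name from the higher mRNAs after earlier results of these data were known, and a gene enters that table only when its MRL/lpr value is at least 2-fold its B6 value. The direction of every difference given for them was therefore fixed by the choice. All values of their mRNAs below are descriptions of these libraries without a test.

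The MRL/lpr mouse was a lupus model of the strain MRL/lpr-Tnfrsf6lpr, in which the *lpr* mutation disables *Fas*, a receptor that triggers lymphocyte death. The other mouse was a C57BL/6J (B6). Both were females of 16 weeks with no treatment named, and magnetic beads were used to deplete the remaining cell types from their spleen suspensions. From each mouse came 1 small RNA library and 1 mRNA library, so no replicate error exists. The series design speaks of a pair of B6 mice, while the labels name 1. The strains differ in much of their genome besides *lpr*, so strain, *lpr*, disease and single mouse cannot be told apart. *Fas* stood in neither mRNA table, nor did any of 12 CD4 T cell markers, so the labels could not be checked against them.

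Most splenic CD4+ T cells of a healthy mouse rest outside the cell cycle and enter S phase only after activation. At that entry, cyclin E turns on the kinase Cdk2, and E2F factors switch on replication and repair genes. Checkpoint kinases hold the cycle back when DNA is damaged or copying stalls. Transcripts of this program are scarce in resting lymphocytes and abundant in dividing ones. In bulk RNA, a larger share of dividing cells and more RNA in each cell cannot be told apart.

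All levels are FPKM, fragments scaled to transcript length and library size, the unit that the table layout points to but does not name. The cyclin gene *Ccne2* and the transcription factor gene *Mybl2* are taken first. *Ccne2* (cyclin E2, chr4:11190433-11204779 on GRCm38.p6), a partner of Cdk2 at the start of S phase, had 6.84 FPKM in MRL/lpr and 1.66 FPKM in B6, a log2 fold of 2.04. *Mybl2* (chr2:163054327-163084688), which encodes B-Myb, had 11.6 FPKM in MRL/lpr and 1.96 FPKM in B6, a log2 fold of 2.56. Both were low in B6, and the higher of them there, *Mybl2*, was also further apart between the libraries.

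*Ccnf* (chr17:24223230-24251409) encodes cyclin F, which binds no kinase but selects proteins for the SCF ubiquitin ligase. It had 9.58 FPKM in MRL/lpr and 1.16 FPKM in B6, the largest ratio among the 8 genes (8.28-fold, log2 fold 3.05). *Chek1* (chr9:36708482-36726658), the kinase that answers stalled replication forks, had the smallest, with 4.61 FPKM in MRL/lpr and 1.82 FPKM in B6 (2.54-fold, log2 fold 1.34). The order of these genes turned between the libraries. The *Ccnf* level was 2.08 times that of *Chek1* in MRL/lpr, against 0.637 times in B6. *Trip13* (chr13:73912450-73937795), an ATPase that remodels Mad2 in the spindle checkpoint and acts in meiotic recombination, had 5.20 FPKM in MRL/lpr and 1.12 FPKM in B6, a log2 fold of 2.21. It was the lowest of the 8 genes in B6.

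*Fen1* (chr19:10199132-10204393) encodes the flap endonuclease that trims Okazaki fragments and serves base excision repair. It had 36.0 FPKM in MRL/lpr and 11.4 FPKM in B6, a log2 fold of 1.66. *Neil3* (chr8:53586867-53639065), a glycosylase that removes oxidised bases, had 8.51 FPKM in MRL/lpr and 1.16 FPKM in B6, a log2 fold of 2.88. In B6, *Neil3* and *Ccnf* stood at nearly one level. *Ezh2* (chr6:47530274-47595270), the methyltransferase of Polycomb repressive complex 2 that marks histone H3 for silencing, had 36.4 FPKM in MRL/lpr and 14.1 FPKM in B6, a log2 fold of 1.37. *Ezh2* and *Fen1* were the most abundant of the 8 genes in both libraries, and the *Ezh2* level was 1.01 times that of *Fen1* in MRL/lpr and 1.23 times in B6.

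**Figure D1:**
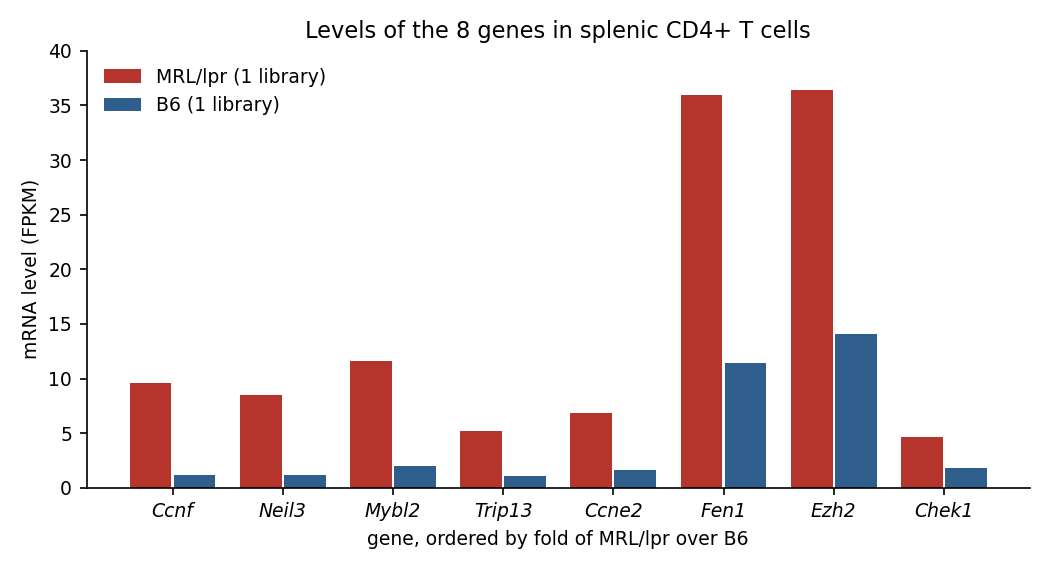
Bars give the level of each of the 8 genes in FPKM, from 0, in the MRL/lpr library (red, left) and the B6 library (blue, right), with genes ordered by fold. *Fen1* and *Ezh2* reach 36.0 and 36.4 FPKM in MRL/lpr, while the other 6 stay between 4.61 and 11.6 FPKM there. Each bar is 1 library, so there are no error bars.

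Levels of the 8 genes thus ranged from 4.61 to 36.4 FPKM in MRL/lpr, a span of 7.90-fold, and from 1.12 to 14.1 FPKM in B6, a span of 12.6-fold. Of the 8 genes, 6 lay under 2 FPKM in B6. Of these 6, *Chek1* was 2.54-fold higher in MRL/lpr, and the other 5 were at least 4-fold higher. Of the 42 higher mRNAs in the same range of B6 levels, these 6 included, 57.1% passed 4-fold. *Fen1* and *Ezh2*, above 10 FPKM in B6, were 3.15-fold and 2.59-fold higher.

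At a threshold of 4-fold, 5 of the 8 genes passed, 62.5%, beside 49.8% of all 440 higher mRNAs. Their median log2 fold was 2.13, against 1.99 over the whole table. The members were picked from this contrast, so nothing is read from these shares. By fold, *Ccnf* ranked 73 of 440, *Neil3* 89, *Mybl2* 122, *Trip13* 178, *Ccne2* 211, *Fen1* 285, *Ezh2* 345 and *Chek1* 350. By level in MRL/lpr, *Ezh2* ranked 27 and *Fen1* 28, and the other 6 ranked between 91 and 159. The 8 genes were thus more abundant than most of the table, whose median level was 2.23 FPKM in MRL/lpr and 0.422 FPKM in B6.

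The largest folds of the table belonged to mRNAs with low levels in B6, as the plot of fold against B6 level shows. Among the 169 higher mRNAs of at least 1 FPKM in B6, 33.1% passed 4-fold and the median log2 fold was 1.63. All 8 genes are among these 169. There *Ccnf* ranked 9 by fold, *Neil3* 14, *Mybl2* 25, *Trip13* 43 and *Ccne2* 52, and the other 3 ranked 83, 112 and 116. In the narrow B6 range of the 6 low genes, 1.12 to 1.96 FPKM, the table holds 42 mRNAs, those 6 included. Their median log2 fold was 2.13, and 57.1% of them passed 4-fold. The 31 mRNAs of at least 10 FPKM in B6, where *Fen1* and *Ezh2* belong, had a median log2 fold of 1.53.

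**Figure D2:**
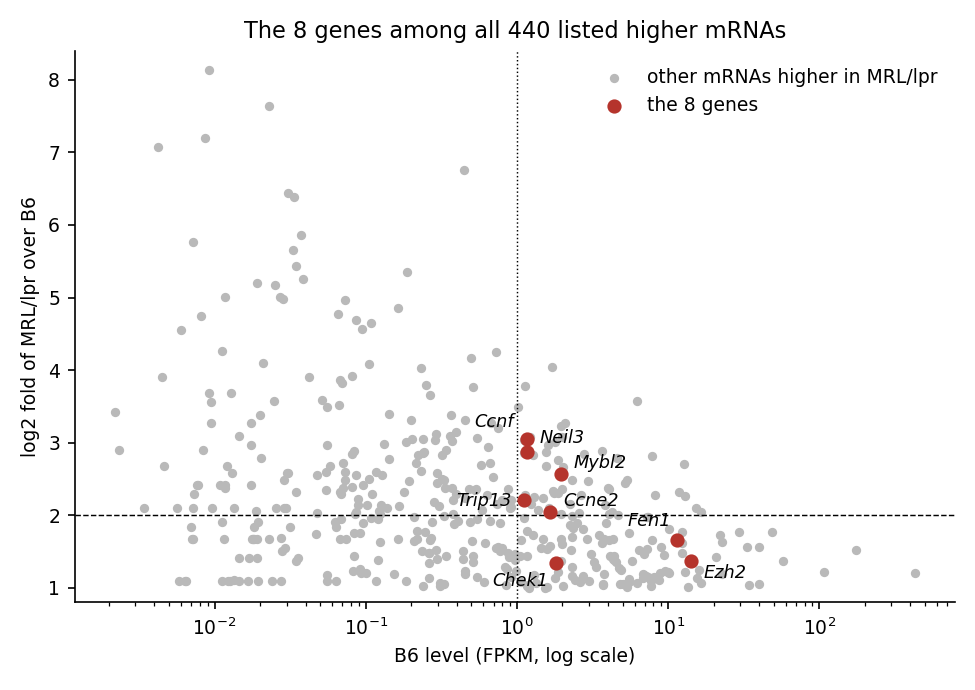
Each point is 1 of the 440 mRNAs higher in MRL/lpr, with its B6 level in FPKM on a log axis and its log2 fold of MRL/lpr over B6. The 8 genes (red, named) all lie right of 1 FPKM (dotted line), 5 of them above 4-fold (dashed line, log2 fold 2), while the highest log2 folds, up to 8.13, lie to the left among mRNAs with low B6 levels.

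Other mRNAs of the table had almost the same pair of levels. Likeness was measured as the distance over the log2 levels of the 2 libraries, which uses only 2 points for each gene. The nearest to *Ccnf* was *Dna2*, a helicase and nuclease of replication and repair, at 9.17 FPKM in MRL/lpr and 1.11 FPKM in B6 (distance 0.09). Nearest to *Neil3* was *Prr11*, with 8.05 FPKM in MRL/lpr and 1.11 FPKM in B6 (distance 0.10). The mRNAs closest to the other 6 were of varied kinds. They were *Sostdc1* for *Mybl2*, *Treml4*, a receptor of myeloid cells, for *Trip13*, *Susd1* for *Ccne2*, *Nr4a2*, a nuclear receptor induced by T cell activation, for *Fen1*, *Leprot* for *Ezh2* and *Cpped1* for *Chek1*. These distances lay between 0.04 for *Susd1* and 0.17 for *Leprot*.

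The deposited table pairs the 8 genes with 14 of the 45 lower miRNAs. A miRNA binds its target mainly through its seed, bases 2 to 8 from the 5′ end, so miRNAs with one seed are predicted on nearly the same mRNAs. The mature sequences of the 14 are shown as the small RNA tables give them, as DNA letters with the seed in capitals, because they show how few seeds stand behind the pairs. *Ccnf* and *Trip13* share the same 6 partners, all of the let-7 family and all with the seed GAGGTAG:
let-7a-5p: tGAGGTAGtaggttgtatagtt
let-7b-5p: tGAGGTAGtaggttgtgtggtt
let-7c-5p: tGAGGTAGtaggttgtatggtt
let-7e-5p: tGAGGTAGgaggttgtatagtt
let-7f-5p: tGAGGTAGtagattgtatagtt
let-7g-5p: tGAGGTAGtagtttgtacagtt
*Ezh2* is paired with miR-26b-5p and with both miR-101 forms, which share a seed:
miR-101a-3p: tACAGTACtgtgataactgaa
miR-101b-3p: tACAGTACtgtgatagctgaa
miR-26b-5p: tTCAAGTAattcaggataggt
The other 5 genes have 1 partner each, miR-200a-3p for *Ccne2*, miR-150-5p for *Fen1*, miR-423-5p for *Mybl2*, miR-30d-5p for *Neil3* and miR-466b-3p for *Chek1*:
miR-200a-3p: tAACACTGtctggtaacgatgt
miR-150-5p: tCTCCCAAcccttgtaccagtg
miR-423-5p: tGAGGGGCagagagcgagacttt
miR-30d-5p: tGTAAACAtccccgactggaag
miR-466b-3p: aTACATACacgcacacataaga

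The 20 pairs of a gene and a miRNA thus rest on 8 seeds, and come to 9 when miRNAs with one seed are counted once. Of the 8 genes, 5 had a single partner, as did 73.6% of the 440 mRNAs, and 2 had 6 partners, a number that 4.55% of the table reached or passed. By seed, 7 of the 8 genes had 1 partner, as did 89.5% of the table. The pairing was a condition for entering the table, so lower miRNAs beside higher mRNAs follow from its construction.

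Levels of the miRNAs are in RPM, reads scaled to the trimmed reads of the library, with the ratio of MRL/lpr over B6 and its exact Clopper-Pearson 95% interval, which covers counting error only. The let-7 partners of *Ccnf* and *Trip13* were the most abundant group. Let-7f-5p had 6325 RPM in MRL/lpr and 18985 RPM in B6, a ratio of 0.333 (95% interval 0.331 to 0.335). Let-7g-5p had 1638 RPM in MRL/lpr and 3820 RPM in B6, and let-7a-5p had 1469 RPM in MRL/lpr and 3190 RPM in B6. The rest were scarcer, with let-7c-5p at 310.03 RPM in MRL/lpr and 921 RPM in B6, and let-7b-5p at 53.2 RPM in MRL/lpr and 131 RPM in B6. Let-7e-5p differed most and was least abundant, with 69 reads (2.30 RPM) in MRL/lpr and 860 reads (25.6 RPM) in B6, a ratio of 0.0900 (95% interval 0.0694 to 0.115). Over the 6 forms together the sum was 9798 RPM in MRL/lpr and 27073 RPM in B6, 2.76 times lower in MRL/lpr. Reads of such similar forms can be exchanged by sequencing errors or mapping, so the sum is given beside its parts.

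The partner of *Fen1*, miR-150-5p of mature lymphocytes, had 2311 RPM in MRL/lpr and 10696 RPM in B6, a ratio of 0.216 (95% interval 0.214 to 0.218). It ranked 3 among the 45 lower miRNAs by B6 level. The partner of *Ccne2*, miR-200a-3p, had the lowest ratio of the 45, 0.0188 (95% interval 0.00384 to 0.0559), from 3 reads in MRL/lpr and 179 reads in B6. At 0.1001 RPM in MRL/lpr and 5.32 RPM in B6 it was scarce in both libraries. The partner of *Chek1*, miR-466b-3p, was scarce too, with 112 reads (3.74 RPM) in MRL/lpr and 328 reads (9.75 RPM) in B6, a ratio of 0.383 (95% interval 0.306 to 0.476).

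MiR-423-5p, paired with *Mybl2*, had 122 RPM in MRL/lpr and 330 RPM in B6, a ratio of 0.370. MiR-30d-5p, paired with *Neil3*, had 161 RPM in MRL/lpr and 338 RPM in B6, a ratio of 0.478 (95% interval 0.462 to 0.494). The 3 partners of *Ezh2* and miR-30d-5p all stood near the 2-fold limit of the list. MiR-26b-5p had 255 RPM in MRL/lpr and 524 RPM in B6, a ratio of 0.487 (95% interval 0.474 to 0.50002). MiR-101a-3p had 91.2 RPM in MRL/lpr and 192 RPM in B6, a ratio of 0.475. MiR-101b-3p had 29.7 RPM in MRL/lpr and 59.8 RPM in B6, a ratio of 0.496 (95% interval 0.458 to 0.537). Its interval includes 0.5, as does that of miR-26b-5p by a narrow margin.

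Of the 14 partners, 3 were at least 4-fold lower in MRL/lpr (miR-200a-3p, let-7e-5p and miR-150-5p), 21.4%, beside 26.7% of the 45 lower miRNAs. Their median ratio was 0.395, against 0.372 for all 45. *Ccne2* has the partner with the lowest ratio, miR-200a-3p with its 3 reads in MRL/lpr, and ranked 211 of 440 by fold. With 1 RPM added to both libraries this ratio became 0.174 and that of let-7e-5p, a partner of *Ccnf*, was lower at 0.124. *Ccnf* had the largest fold of the 8 genes, and *Neil3*, which ranked 89, has a partner that was 2.09 times lower. Whether the ratio of a partner goes with the fold of its gene was not tested.

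**Figure D3:**
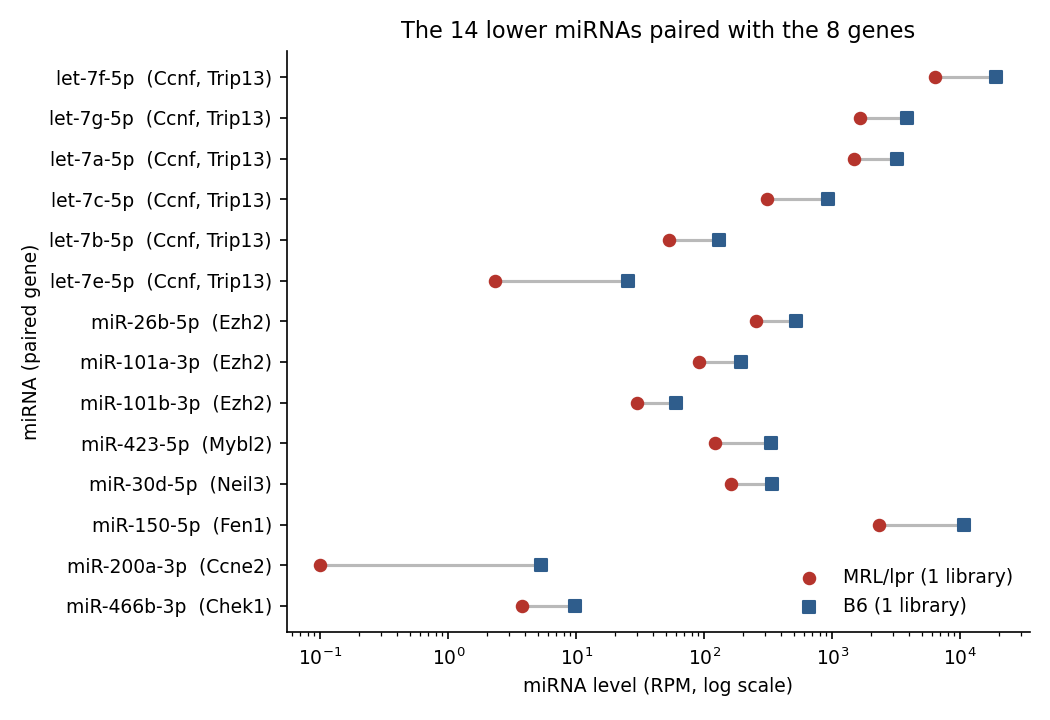
Each row is 1 of the 14 miRNAs with its paired gene in brackets. The red circle is its level in the MRL/lpr library and the blue square its level in the B6 library, in RPM on a log axis. Every miRNA is lower in MRL/lpr, as the list requires, and the B6 levels run between 5.32 RPM (miR-200a-3p) and 18985 RPM (let-7f-5p).

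Each miRNA is paired with many mRNAs of the table besides the 8 genes. The let-7 seed is paired with 22 higher mRNAs with a median log2 fold of 2.14, among which *Ccnf* ranked 5 and *Trip13* 10. *Neil3* ranked 10 of 37 mRNAs paired with miR-30d-5p, and *Mybl2* ranked 11 of 25 paired with miR-423-5p. *Ccne2* ranked 17 of 40 for miR-200a-3p. *Fen1* ranked 21 of 33 for miR-150-5p, *Chek1* 23 of 29 for miR-466b-3p, and *Ezh2* 21 both of the 32 mRNAs of the miR-101 seed and of the 27 of miR-26b-5p. *Ccnf* alone was among the first 5 of its group.

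Related genes were looked up in lists of S phase, checkpoint, DNA repair, E2F and MYB, Polycomb, and cyclin and CDK genes. Of the 236 different genes of these 6 lists, 17 stood among the higher mRNAs and 1 stood among the lower mRNAs. The 17 are the 8 genes, whose direction was fixed by the choice, and 9 others. Over both tables together, 67.5% of mRNAs are higher, a share that cannot be set against a count that holds the 8 genes. The remaining 218 genes of the lists are in neither table. They are not read as unchanged, since only predicted targets with a 2-fold difference are listed. The 17 had a median log2 fold of 1.72, against 1.99 over all 440 higher mRNAs. Of the 17, 6 passed 4-fold, beside 219 of the 440 (49.8%). Of these 6, 5 belong to the 8 genes, and *Cdkn2b* is the only one of the 9 others.

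In the S phase list, 3 of 60 genes were higher, *Ccne2*, *Fen1* and *Rfc5*, a subunit of the clamp loader, which had 21.0 FPKM in MRL/lpr and 7.23 FPKM in B6. In the checkpoint list, 5 of 30 were higher. Besides *Ccnf*, *Chek1* and *Trip13* these were *Chek2*, the kinase that answers DNA breaks, with 4.57 FPKM in MRL/lpr and 1.57 FPKM in B6, and *Gtse1*, with 8.22 FPKM in MRL/lpr and 2.26 FPKM in B6. The levels of the kinases *Chek1* and *Chek2* were alike within each library. *Sfn*, which encodes 14-3-3 sigma, a brake on entry into mitosis, was the 1 lower gene, with 3.78 FPKM in MRL/lpr and 27.5 FPKM in B6 (log2 fold -2.87). It opposes the direction of the others in its list.

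Of the 74 DNA repair genes, 3 were higher and none was lower. *Neil3* had the largest fold of the 3. *Eme1*, a partner of the nuclease Mus81, had 4.25 FPKM in MRL/lpr and 1.29 FPKM in B6 (log2 fold 1.72), and *Palb2*, which links Brca1 with Brca2, had 2.79 FPKM in MRL/lpr and 1.34 FPKM in B6 (log2 fold 1.06). *Eme1* and *Palb2* act in homologous recombination, and *Neil3* in base repair.

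Among 20 genes of the E2F and MYB list, 3 were higher. *Tfdp1*, the partner of E2F proteins, had 70.1 FPKM in MRL/lpr and 22.6 FPKM in B6, and *Mybl1*, the relative of *Mybl2*, had 0.524 FPKM in MRL/lpr and 0.163 FPKM in B6. In MRL/lpr, *Mybl2* was thus far above *Mybl1* per length. *Ezh2* was the 1 gene of 27 in the Polycomb list. Of the 31 cyclins, CDKs and inhibitors, 4 were higher, with *Cks2*, a small CDK subunit, at 100.5 FPKM in MRL/lpr and 29.4 FPKM in B6. *Cdkn2b*, an inhibitor of Cdk4 and Cdk6 that slows the cycle, had 2.29 FPKM in MRL/lpr and 0.0732 FPKM in B6 (log2 fold 4.97), a level in B6 at which few fragments stand behind the fold.

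**Figure D4:**
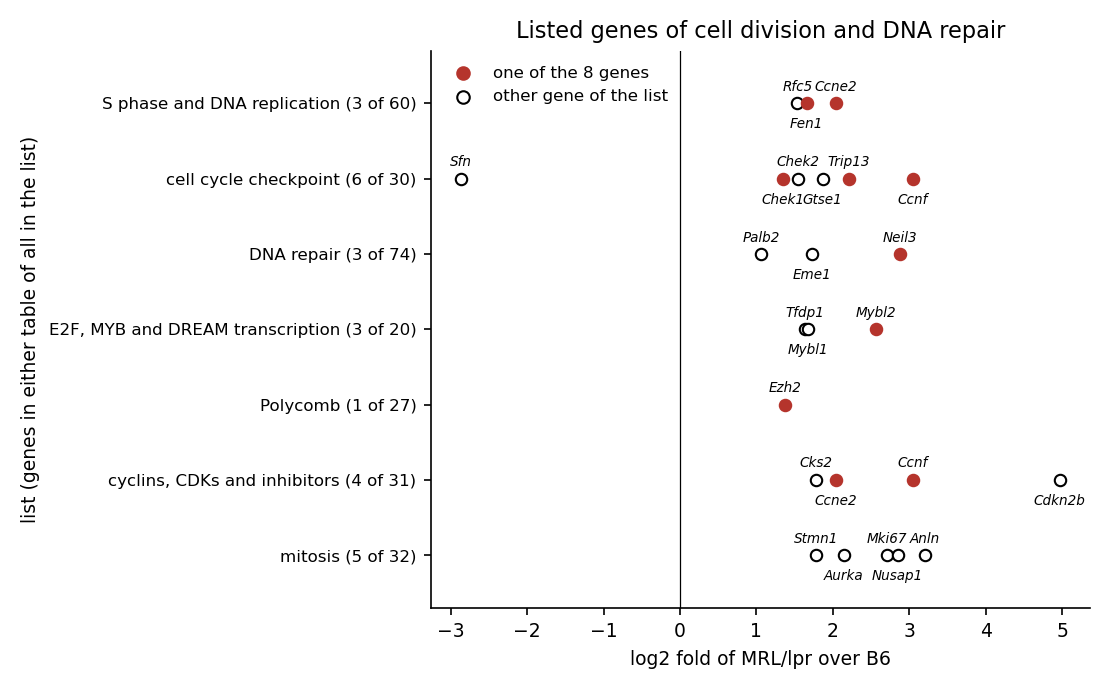
Points give the log2 fold of MRL/lpr over B6 of each listed gene found in either mRNA table, by list, with the number found of the number in the list. The 8 genes are red and other genes are open circles. *Sfn*, at -2.87, is the 1 point left of 0, and *Cdkn2b*, at 4.97, is the farthest right.

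The deposited table also carries Gene Ontology terms, an annotation that did not choose the genes. DNA repair is given for 9 of the 440 mRNAs, *Chek1*, *Fen1* and *Neil3* among them, with a median log2 fold of 1.72. The term cell cycle is given for 18, with *Ccne2*, *Ccnf* and *Chek1*, and a median log2 fold of 1.91, and cell division for 12, with *Ccne2* and *Ccnf*, and 2.09. DNA replication is given for 3, *Fen1*, *Rfc5* and *Dna2*, with a median log2 fold of 1.66. Response to DNA damage is given for 11, with *Chek1* and *Neil3*, and 1.93. The median over all 440 was 1.99, and of these terms cell division alone lay above it.

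Promoters were searched because S phase genes are known for E2F sites and late cell cycle genes for the CHR element near the start site. RefSeq windows of GRCm38.p6, 250 bases before to 50 after a start, matched 7 of the 8 genes, with 2 windows for *Fen1*. No window matched *Ccne2*, so its promoter was not searched. The start used for *Ezh2* lies inside the outer bounds of the gene given above, so it is not the outermost start of that gene. The letters searched on both strands were TTTCCCGC, TTTCGCGC, TTTGGCGC and TTTGCCGC for E2F, TTTGAA for CHR and CCAAT for the CCAAT box, and no 2 matches in these promoters overlapped. Of the 7 genes with a window, an E2F match stood in *Ezh2* alone, beside 2.26% of all 32851 windows. Other forms of the E2F site were not searched, so genes without these letters may still hold one. CHR letters stood in *Ccnf* and *Fen1*, beside 17.9% of windows, and CCAAT in *Ccnf* and *Ezh2*, beside 37.4%. These matches are letters in a window and not sites shown to be bound. The 150 bases before the start used for *Ccnf* (chr17:24251410-24251559, minus strand) and *Ezh2* (chr6:47595031-47595180, minus strand) are printed with CHR and CCAAT letters in capitals, since these promoters hold most matches. The third sequence is the 30 bases around the E2F letters of *Ezh2* (chr6:47595009-47595038), which begin at base 4 counted from the same start.
Ccnf: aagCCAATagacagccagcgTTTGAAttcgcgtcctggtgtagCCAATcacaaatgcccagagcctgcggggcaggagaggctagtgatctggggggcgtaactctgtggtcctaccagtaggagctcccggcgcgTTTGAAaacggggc
Ezh2: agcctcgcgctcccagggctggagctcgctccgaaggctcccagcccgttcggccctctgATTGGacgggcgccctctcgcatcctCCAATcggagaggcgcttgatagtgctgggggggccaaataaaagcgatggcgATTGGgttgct
Ezh2 E2F letters: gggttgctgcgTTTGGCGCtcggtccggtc

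Markers of other cells were looked up beside these values. Of 14 myeloid markers, *Itgam* and *Cd68* were among the higher mRNAs, with a summed level of 56.8 FPKM in MRL/lpr and 8.99 FPKM in B6. Of 10 CD8 T and NK cell markers, *Klrd1* was lower, with 6.22 FPKM in MRL/lpr and 27.0 FPKM in B6, and of 10 erythroid markers *Tfrc*, which dividing cells also make, was higher, with 37.9 FPKM in MRL/lpr and 15.9 FPKM in B6. None of 10 B and plasma cell markers was in either table. Markers in neither table have no value here. Of 32 mitosis genes, 5 were higher, with *Mki67* at 83.1 FPKM in MRL/lpr and 12.7 FPKM in B6 (log2 fold 2.71). The part of other cells in the levels of the 8 genes was not tested.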

How the data were processed

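Small RNA and mRNA were sequenced from splenic CD4+ T cells of 1 MRL/lpr and 1 B6 mouse, 4 libraries in all. Per the file headers, small RNA libraries held 29971024 trimmed reads in MRL/lpr and 33634335 in B6. The authors deposited read counts of mature miRNAs and RPM values, which divide the counts by the trimmed reads, and listed the miRNAs that differed 2-fold and reached 100 reads in sum. The mRNA values that the authors deposited are called raw and are taken as FPKM from the Cuffdiff layout of the tables. Aligner, build and miRBase release were not given in the sources used here. Columns with the authors' folds, test statistics, p-values, q-values and normalized values were not used.

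Folds, ranks and counts were computed with Python 3.11.15, NumPy 2.4.6, SciPy 1.17.1 and pandas 2.3.3, and plots with Matplotlib 3.10.9. Intervals of miRNA ratios are exact Clopper-Pearson limits at 95% and were tested on simulated counts of 45 miRNAs, where 95.3% held the true ratio. For mRNA, 63 of 74 genes under 0.1 FPKM in both libraries had a ratio of whole numbers that summed to 40 or less, to within 3e-05, after division by 1.06833. Fragment numbers of the 8 genes could not be recovered from this, so no interval is given.

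The genes and lists were chosen with earlier results of these data known. Named genes are the 8 genes, list genes found in either table, their paired miRNAs and the nearest mRNA to each. *Dna2* and the Gene Ontology terms were taken up after the values were seen. List names were matched to GeneID through a RefSeq table of GRCm38.p6, 321 of 322 with an entry. Some genes of the DNA repair list are not reported here. Alternatives were other fold thresholds, added values, a minimum level, other ranks, scaling to the miRNA totals and counting by seed.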

Additional observations from a re-analysis of the deposited data

How the results depend on the processing

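Each comparison rests on 1 library per strain, and depth limits miR-200a-3p and let-7e-5p most, with 3 and 69 reads in MRL/lpr. No paired analysis was possible because the strains were compared on 1 library apiece, with no fit. Of the 8 genes, 5 passed 4-fold, beside 49.8% of the 440 higher mRNAs. At 3-fold 6 passed, beside the first 295 of the 440 by fold. At 5-fold 3 passed, beside the first 158 of the 440. With 0.1 and 1 FPKM added to both libraries, 4 and 3 passed 4-fold. The shares of all 440 with added values were not computed, so nothing is read from these counts. The median log2 fold of 2.13 became 2.05 and 1.57 with 0.1 and 1 FPKM added, and 2.04 or 2.21 without any 1 gene. The median rank by fold of 194.5 became 47.5 among the mRNAs of at least 1 FPKM in B6, 91.5 with 1 FPKM added and 96 by the difference of the levels. The median ratio of the 14 miRNAs, 0.395, became 0.328 scaled to the miRNA totals, which are 21.8% of trimmed reads in MRL/lpr and 18.1% in B6, and 0.420 and 0.455 with 1 and 10 RPM added. Of the 14 single ratios, 11, 2 and 7 left their counting intervals under these 3 settings. Scaling moves every ratio by one factor, so which of them leave follows from read depth. Those that stayed inside, miR-200a-3p, let-7e-5p and miR-466b-3p, had the fewest MRL/lpr reads of the 14 and are not thereby more stable. The mean of 2.5 partners per gene became 1.125 by seed and 1.875 with partners of at least 100 RPM in B6. Adding one value to both libraries or dividing by one small factor cannot turn a difference of 2-fold, so the kept directions are no sign of stability.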

Other observations

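Some miRNAs that are paired with the 8 genes are also paired with their relatives in the lists. MiR-423-5p is paired with *Mybl2* and with *Tfdp1* (70.1 FPKM in MRL/lpr and 22.6 FPKM in B6). MiR-200a-3p is paired with *Ccne2* and with *Mybl1*. MiR-466b-3p is paired with *Chek1*, *Gtse1*, *Eme1* and *Tfrc*, and miR-26b-5p with *Ezh2*, *Palb2* and *Cks2*. These miRNAs are paired with 25 to 40 higher mRNAs each, and whether they meet list genes more often than other miRNAs do was not tested.

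The mitosis genes in the table of higher mRNAs were *Anln* (log2 fold 3.21), *Nusap1* (2.85), *Mki67* (2.71), *Aurka* (2.14) and *Stmn1* (1.78). None of them shares a paired miRNA with the 8 genes. *Anln* and *Aurka* are paired with miR-466d-3p, whose name is close to that of miR-466b-3p, the partner of *Chek1*. The share of the other higher mRNAs that have no miRNA in common with the 8 genes was not counted. Nothing is therefore read from the absence of a shared miRNA.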
